A study of Mus musculus with 12 samples.

Results

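Ethanol and loss of Fyn were followed here in 10 genes that hold back MAP kinase signalling: the MAP kinase phosphatases Dusp1, Dusp3, Dusp4, Dusp5, Dusp6 and Dusp14, the Sprouty genes Spry2 and Spry4, and the Sprouty-related genes Spred1 and Spred2. The members are all probe sets that the platform annotation assigns to these symbols, which gave 27 of 45037 probe sets, and 10 of 18193 genes with at least 1 probe set of their own. A filter on low values left 22 of the 27 probe sets, and each of the 10 genes kept at least 1. The 5 that fell below it were Spry2 1421656_at, Spry4 1422020_at, 1422021_at and 1445669_at, and Spred1 1445228_at.

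Medial prefrontal cortex of male mice was hybridised to Affymetrix arrays of the mouse transcriptome, 4 hours after an intraperitoneal injection. The labels give an age of 12 weeks, which by the study's methods was the age on arrival, 1 week before experiments began. The groups were Fyn-null mice (B6;129S7-Fyntm1Sor/J) given 3 g/kg ethanol, Fyn-null mice given saline, control mice (B6129SF2/J) given 3 g/kg ethanol and control mice given saline. Each group had 3 arrays, for each of which the tissue of 3 mice of the same group was pooled. All mice had received saline injections on the preceding days to accustom them to handling. The Fyn-null mice carry the targeted Fyn allele in every cell from conception and come from another stock than the controls, so loss of Fyn and stock cannot be told apart in any comparison of genotypes.

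In the canonical pathway a growth factor receptor engages adaptors and Ras, which activate Raf, MEK and then the kinase ERK, and the parallel p38 and JNK branches answer to stress. Dual-specificity phosphatases take the phosphates off these kinases in the nucleus or the cytoplasm, and Sprouty and Spred proteins act further up, at Ras and Raf. Several of these genes are themselves switched on by ERK, so that in brain and other tissues their transcripts form a negative feedback loop and are commonly read together with immediate early genes such as Fos and Egr1.

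Promoter sequence from RefSeq (GRCm38.p6, the 250 bases before the annotated start, on the strand of the gene) was at hand for 8 of the 10 genes. The sequences below are those of the 3 genes called lower after ethanol, of Dusp5, whose value lay on the other side of 0, and of Dusp1, whose window held a full cyclic AMP response element. Capitals mark matches to the motifs described after them.
Dusp6 (chr10:99262981-99263230, plus strand): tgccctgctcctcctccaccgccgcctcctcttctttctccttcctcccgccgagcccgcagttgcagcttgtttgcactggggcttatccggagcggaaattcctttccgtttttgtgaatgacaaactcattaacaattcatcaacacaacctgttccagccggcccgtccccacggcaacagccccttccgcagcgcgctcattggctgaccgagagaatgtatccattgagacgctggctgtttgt
Dusp3 (chr11:101984792-101985041, minus strand): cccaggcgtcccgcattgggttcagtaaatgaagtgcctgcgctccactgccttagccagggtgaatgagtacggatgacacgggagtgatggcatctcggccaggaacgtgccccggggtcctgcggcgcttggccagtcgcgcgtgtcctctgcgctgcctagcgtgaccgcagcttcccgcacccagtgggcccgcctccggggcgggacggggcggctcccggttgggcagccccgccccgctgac
Spry2 (chr14:105896820-105897069, minus strand): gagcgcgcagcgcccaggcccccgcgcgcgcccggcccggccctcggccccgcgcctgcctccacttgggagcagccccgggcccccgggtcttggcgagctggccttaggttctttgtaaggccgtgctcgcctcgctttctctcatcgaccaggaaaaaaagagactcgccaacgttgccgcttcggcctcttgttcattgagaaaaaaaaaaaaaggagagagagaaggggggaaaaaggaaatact
Dusp5 (chr19:53528895-53529144, plus strand): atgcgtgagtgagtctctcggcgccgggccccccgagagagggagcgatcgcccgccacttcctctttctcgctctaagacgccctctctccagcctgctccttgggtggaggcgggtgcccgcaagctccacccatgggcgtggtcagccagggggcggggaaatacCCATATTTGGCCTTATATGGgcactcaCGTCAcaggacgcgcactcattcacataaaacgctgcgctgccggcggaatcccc
Dusp1 (chr17:26508473-26508722, minus strand): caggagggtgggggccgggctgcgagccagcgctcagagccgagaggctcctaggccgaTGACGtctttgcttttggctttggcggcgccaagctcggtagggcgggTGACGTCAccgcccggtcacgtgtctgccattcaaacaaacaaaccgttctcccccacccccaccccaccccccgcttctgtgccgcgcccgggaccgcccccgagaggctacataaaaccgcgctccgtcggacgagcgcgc

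The motifs were searched on both strands, and the shares refer to all 32851 RefSeq windows of the same length. The cyclic AMP response element TGACGTCA was found in Dusp1 alone, from base -143 to -136 before the start, and in 1.55% of all windows. Its shorter core TGACG, which overlaps the full element, was present in Dusp1, Dusp5 and Spred2 and in 17.8% of windows. Dusp5 held 2 adjoining CArG boxes, the motif bound by serum response factor, from -82 to -73 and from -72 to -63, and a CArG box occurred in 1.47% of windows. The AP-1 motif TGANTCA (6.75% of windows), the Ets motif CCGGAAG (6.91%) and the TATA motif TATAAA (12.4%) were in none of the 8 windows. The windows of Dusp6, Dusp3 and Spry2 therefore held none of these letters. GC content was 56.4% for Dusp6, 70.0% for Dusp3, 62.4% for Spry2, 64.0% for Dusp5 and 68.4% for Dusp1, against a median of 52.4% over all windows. A match is a description of the letters and not of a bound site.

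Of the whole series, array medians lay between 5.40 and 5.48 on the log2 scale and correlations between arrays between 0.982 and 0.997. The log2 value of Fyn's brighter probe set was 8.75 to 9.01 in the 3 Fyn-null ethanol pools, 8.64, 8.89 and 9.45 in the Fyn-null saline pools, 9.33 to 9.70 in the control ethanol pools, and 8.74, 9.31 and 9.65 in the control saline pools. The library labelled Fyn-null saline replicate 4 (9.45) thus lay in the range of the controls, and the library labelled control saline replicate 2 (8.74) in that of the Fyn-null pools. The sources used here do not say where this probe set lies relative to the targeted part of the gene. In Fyn's dimmer probe set the genotypes overlapped in further pools. There Fyn-null saline replicate 4 read 7.75 and Fyn-null ethanol replicate 1 7.81. Control saline replicates 1 and 2 read 7.65 and 7.53, and control ethanol replicate 2 7.80. Fyn-null saline replicate 4 and control saline replicate 2 are called the doubted pools below. Counts of members called, and some of the member values that these 2 pools moved, are given with and without them. All 8 neuronal markers and all 6 astrocyte markers on the marker lists were measured, with mean log2 values of 10.46 to 10.81 and 9.42 to 9.69 over the pools, and 0 of either list were called by limma between treatments. In bulk tissue, fewer cells of a type and less RNA per cell cannot be told apart.

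After ethanol 3 of the 22 member probe sets fell and 0 rose over both genotypes (6 pools against 6). They were Dusp6, the cytoplasmic phosphatase of ERK, Dusp3, a small phosphatase of ERK and JNK also known as VHR, and Spry2, a Sprouty inhibitor of receptor signalling. Among all 24770 probe sets tested, 6.81% were called, 4.22% lower and 2.58% higher. At an unadjusted p under 0.05 the members stood at 27.3% and all probe sets at 24.3%. The median log2 difference was -0.04 for the 22 members and -0.02 for all probe sets. Of the 22 probe sets 14 lay below 0 and 8 above, between -0.78 and 0.27, and 12 of the 22 belong to Spred1 and Spred2. With each gene represented by its brightest probe set, 9 of the 10 members lay below 0, against 62.5% of all 12323 genes. Of these 9, Dusp1 (-0.08, SE 0.11), Dusp14 (-0.0006, SE 0.08), Spred1 (-0.03, SE 0.11) and Spred2 (-0.04, SE 0.06) were smaller in size than their SE. The count also depends on the probe set chosen: with the mean of a gene's probe sets, Spred1 and Spred2 lay above 0, at 0.02 each.

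**Figure D1:**
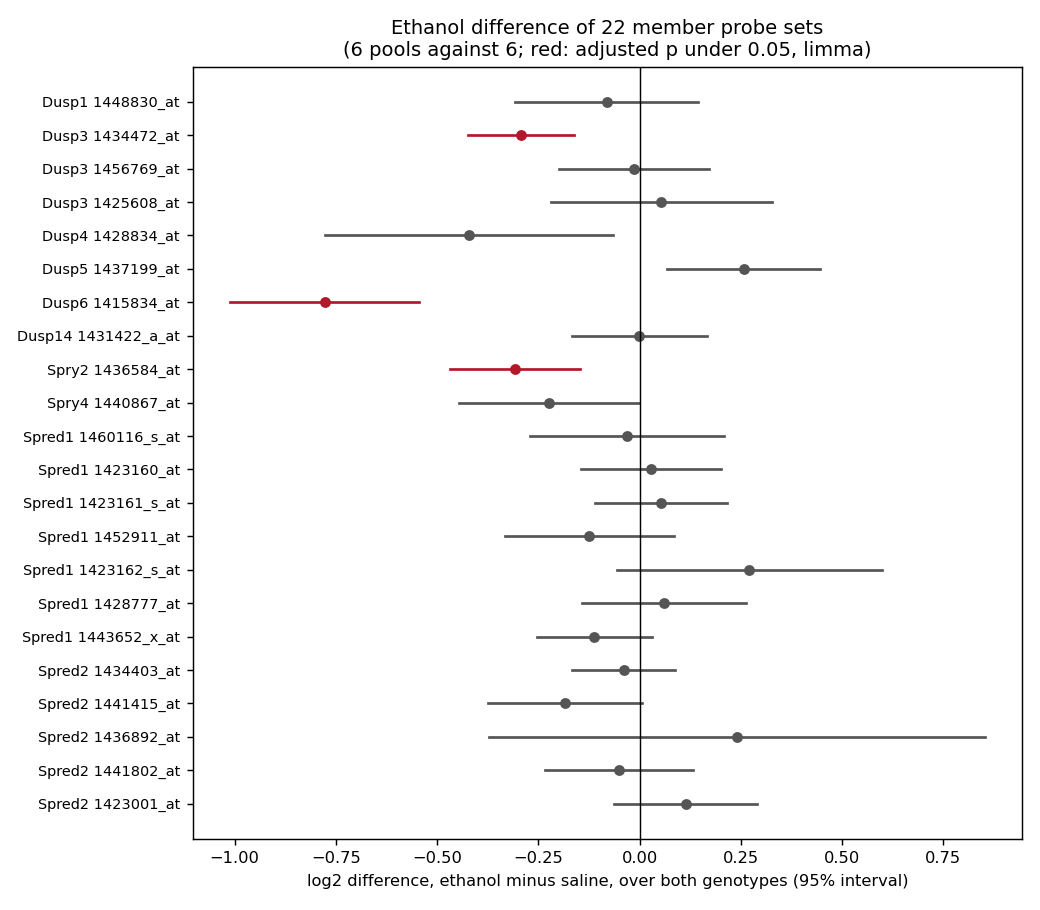
Log2 difference, ethanol minus saline over both genotypes (horizontal axis), of the 22 member probe sets that passed the filter, with 95% intervals from limma; red marks an adjusted p under 0.05. Dusp6 lies at -0.78, Dusp3 1434472_at at -0.29 and Spry2 at -0.31, while 14 points lie left of 0 and 8 right of it.

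Dusp6 1415834_at showed the largest difference of the 22. Its log2 values, in order of replicate number, were 8.42, 8.01 and 8.49 in the Fyn-null ethanol pools and 9.02, 9.39 and 8.95 in the Fyn-null saline pools. In control mice they were 8.08, 8.41 and 8.57 after ethanol and 9.18, 9.10 and 9.01 after saline. Every ethanol pool lay below every saline pool, whatever the genotype. The difference was -0.78 (SE 0.11, 95% interval -1.01 to -0.55, adjusted p = 0.00164), by which the fitted level decreased by 41.7%, and it ranked 93 of 24770 by p. Non-overlap in the lower direction was seen for 2 members and for 2.58% of all probe sets, and in the higher direction for 0 members and 1.32% of all. Leaving out each pool in turn gave -0.83 to -0.71 with adjusted p between 0.00178 and 0.00523.

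Dusp3 1434472_at was the other member whose treatments did not overlap. In Fyn-null pools its log2 values were 9.62, 9.64 and 9.64 after ethanol and 9.92, 10.05 and 9.95 after saline. In control pools they were 9.67, 9.67 and 9.43 after ethanol and 9.84, 9.74 and 9.94 after saline. The ethanol pools of Fyn-null mice were nearly alike, and 1 control ethanol pool, replicate 4, was the lowest of all 12. The difference was -0.29 (SE 0.06, adjusted p = 0.0145). The other Dusp3 probe sets did not follow it: 1456769_at differed by -0.01 (SE 0.09, adjusted p = 0.939) and 1425608_at by 0.05 (SE 0.13, adjusted p = 0.837). The mean of the 3 Dusp3 probe sets differed by -0.08 (SE 0.06, adjusted p = 0.432), so the call for this gene rests on its brightest probe set.

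Spry2 1436584_at was lower after ethanol by a similar amount but with overlap. Its log2 values were 7.94, 7.83 and 7.91 in Fyn-null ethanol pools and 8.17, 8.28 and 8.38 in Fyn-null saline pools. Control pools read 8.28, 8.15 and 7.93 after ethanol and 8.49, 8.21 and 8.35 after saline. The Fyn-null pools were separated by treatment, whereas control ethanol replicate 1 lay above control saline replicate 2. The difference was -0.31 (SE 0.07, adjusted p = 0.0286). The call was lost on leaving out any 1 of 5 pools: Fyn-null ethanol replicate 2 (adjusted p = 0.0721) or 3 (0.0582), Fyn-null saline replicate 3 (0.0655), control ethanol replicate 4 (0.0555) or control saline replicate 1 (0.0564).

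**Figure D2:**
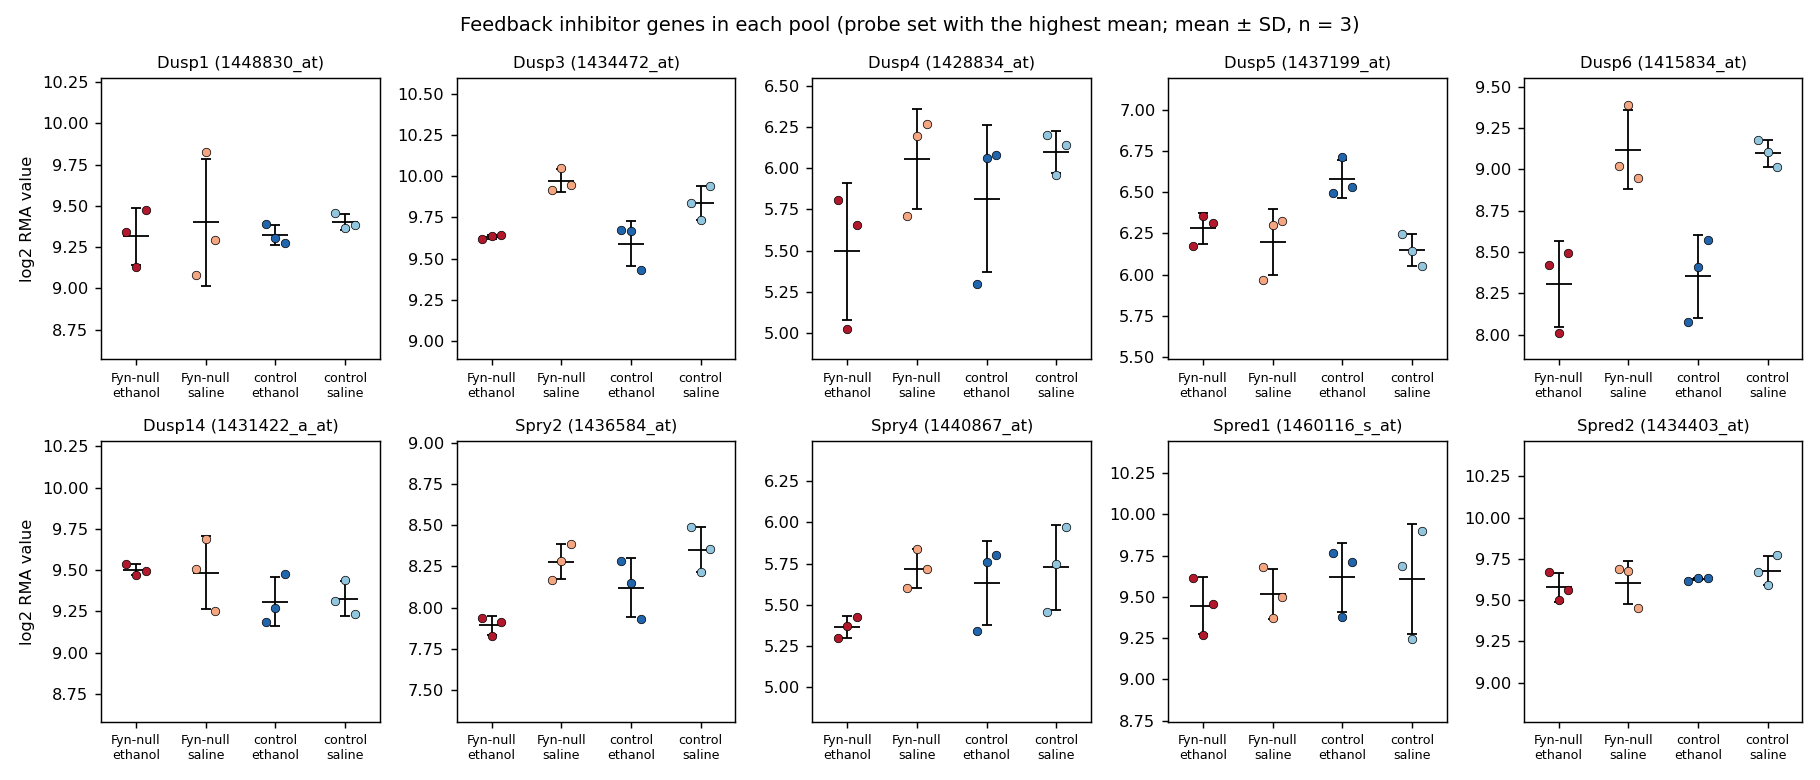
Log2 RMA value (vertical axis) of the 10 member genes in each pool, for the probe set with the highest mean, with the group mean and SD of 3 pools; each panel spans the same number of log2 units. The ethanol pools of Dusp6 (8.01 to 8.57) and Dusp3 (9.43 to 9.67) lie below their saline pools (8.95 to 9.39 and 9.74 to 10.05), while in the other 8 panels the treatments overlap.

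None of the remaining phosphatases passed the test over both genotypes. Dusp4, a nuclear phosphatase that is itself an ERK target gene, had the second largest negative value, -0.42 (SE 0.17, 95% interval -0.78 to -0.07, adjusted p = 0.136). Its log2 values ran from 5.03 to 6.08 in ethanol pools and from 5.71 to 6.27 in saline pools. The pools Fyn-null ethanol replicate 2 (5.03) and control ethanol replicate 1 (5.30) were the low ones, and these were also the lowest pools of Dusp6. Dusp5, a nuclear phosphatase specific for ERK, had a positive value of 0.26 (SE 0.09, 95% interval 0.07 to 0.45, adjusted p = 0.092). Dusp1, the stress- and glucocorticoid-inducible phosphatase of p38, JNK and ERK, differed by -0.08 (SE 0.11, 95% interval -0.31 to 0.14, adjusted p = 0.678). Its spread was widest among Fyn-null saline pools, where the log2 values were 9.08, 9.83 and 9.29. Dusp14, an atypical phosphatase, gave a difference of 0.00 (95% interval -0.17 to 0.17), within which a change of the size seen for Dusp6 does not fall.

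Among the Sprouty and Spred genes, Spry4, which like Spry2 restrains receptor signalling, had 1440867_at at -0.22 (SE 0.10, 95% interval -0.44 to -0.0015, adjusted p = 0.203). A dimmer Spry4 probe set below the filter, 1445669_at, gave -0.40 (SE 0.09, adjusted p = 0.0302) when all probe sets were tested, and the 2 others lay at 0.07 and 0.16. Its log2 values ran from 4.67 to 5.12 in ethanol pools and from 5.05 to 5.37 in saline pools, overlapping by 1 ethanol pool. The probe set was left out of the 22 and its call is thus an addition under another filter. Spred1 and Spred2, membrane-associated inhibitors of the step from Ras to Raf, had 7 and 5 probe sets above the filter, and 0 of these 12 were called. The Spred1 values lay between -0.12 and 0.27 and those of Spred2 between -0.18 and 0.24. The extremes were 1423162_s_at (0.27, SE 0.15, adjusted p = 0.300) and 1452911_at (-0.12) for Spred1, and 1436892_at (0.24, SE 0.28) and 1441415_at (-0.18, SE 0.09, adjusted p = 0.218) for Spred2.

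Measures of RNA and of another cell type moved with treatment alongside the 3 calls. The log2 difference between the 3' and 5' probe sets of the Gapdh control was -0.045 to 0.105 in ethanol pools and 0.106 to 0.529 in saline pools, without overlap but with the nearest pools side by side (two-sided exact permutation p = 0.00216 over 924 arrangements). For the actin control it was 0.71 to 1.15 in ethanol pools and 0.98 to 1.45 in saline pools (exact permutation p = 0.0108). With the mean of both as a covariate, an alternative added after the data were seen, 0 members and 27 of all probe sets were called. The values themselves were then -0.71 for Dusp6 (SE 0.19, adjusted p = 0.243), -0.23 for Dusp3 (SE 0.10, adjusted p = 0.531) and -0.32 for Spry2 (SE 0.13, adjusted p = 0.489). The main fit called 1686 of all probe sets, and its SE for Dusp6 was 0.11. Because the covariate moved with treatment, this fit cannot tell the 2 apart. A call lost under it, here or below, is therefore no finding about a single gene. All 8 endothelial and mural markers were measured, and their mean log2 value was 7.07 to 7.40 in ethanol pools and 7.44 to 7.61 in saline pools. Of these 8, Cldn5, Flt1, Kdr, Tek and Rgs5 were called lower and Slc2a1 higher, and the part of these cells in the member results was not tested. The mean log2 levels of the lists for neurons, astrocytes, oligodendrocytes, microglia, choroid plexus and striatum overlapped between treatments, with 1 of 6 microglial markers lower (Aif1) and 1 of 2 measured striatal markers higher (Ppp1r1b). The only blood marker measured, Alas2, was 6.02 to 6.52 in ethanol pools and 6.41 to 6.95 in saline pools and was called lower.

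**Figure D3:**
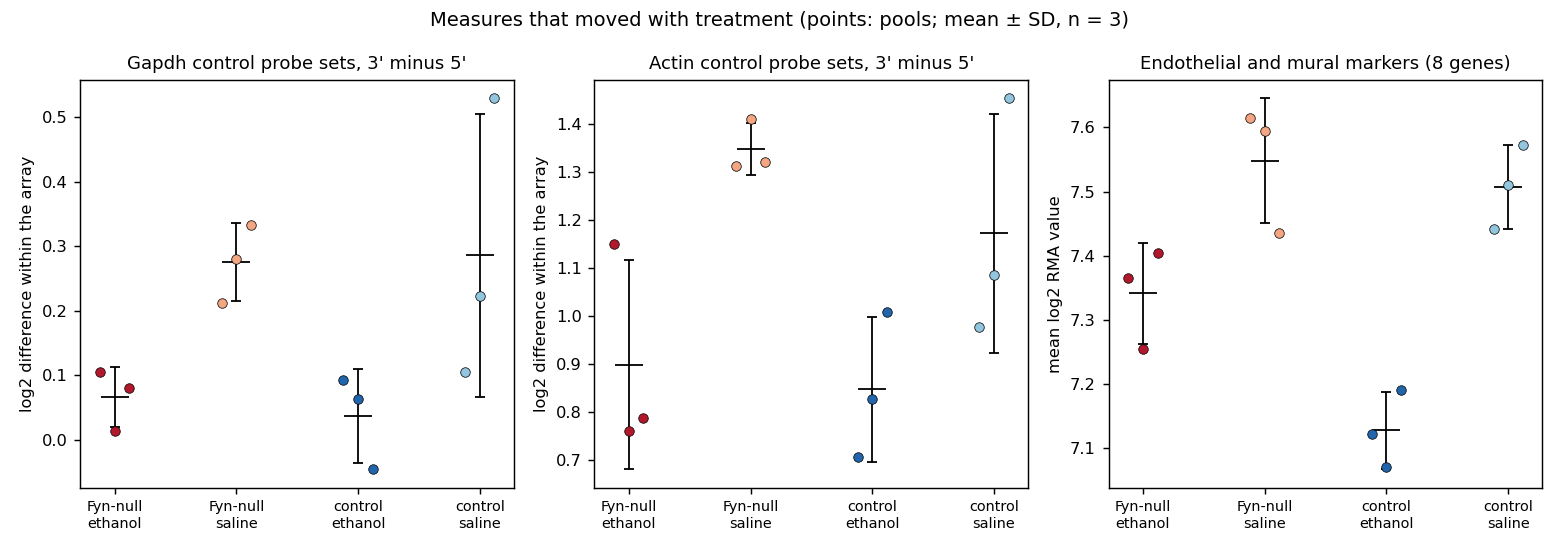
Measures that moved with treatment, by pool, with group mean and SD of 3 pools: the log2 difference of 3' minus 5' probe sets of the Gapdh and actin controls within each array, and the mean log2 value of 8 endothelial and mural markers. Gapdh values are -0.045 to 0.105 after ethanol and 0.106 to 0.529 after saline, and marker means are 7.07 to 7.40 after ethanol and 7.44 to 7.61 after saline.

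The ethanol response was next fitted within each genotype, with 3 pools against 3. In Fyn-null mice 0 of 22 member probe sets were called by limma, with 6 at an unadjusted p under 0.05, against 0.4% of all probe sets called and 11.7% at that unadjusted level. Dusp6 came nearest, at -0.81 (SE 0.16, 95% interval -1.16 to -0.47, adjusted p = 0.0525). In control mice 1 of 22 was called, Dusp6 at -0.75 (SE 0.16, 95% interval -1.09 to -0.40, adjusted p = 0.0427), against 1.43% of all probe sets (0.925% lower), and 6 had an unadjusted p under 0.05, against 18.9% of all. Dusp6 was thus on either side of the threshold with values that differed by less than 1 SE. Leaving out the doubted control pool and the doubted Fyn-null pool gave -0.74 in control mice (adjusted p = 0.0877) with 0 members called there. In Fyn-null mice Dusp6 was then at -0.90, also with 0 members called, and Spred2 1436892_at at 0.64, against 0.17 (SE 0.42) with all pools. The call in control mice was also lost on leaving out any 1 of 8 pools, namely Fyn-null ethanol replicates 1 and 3, Fyn-null saline replicate 2, control ethanol replicates 1 and 2 and control saline replicates 1, 2 and 3 (adjusted p = 0.0576 to 0.127), and a call in Fyn-null mice was gained on leaving out control ethanol replicate 1 (adjusted p = 0.0383). The value itself ran from -0.86 to -0.61 in control mice over these fits.

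Groups that do not overlap within a genotype were more common. In Fyn-null mice 5 of 22 members were lower in every ethanol pool, Dusp6, Dusp3 1434472_at, Spry2, Spry4 1440867_at and Spred2 1441415_at, against 9.81% of all probe sets, and 0 were higher in every one, against 8.28%. In control mice 3 were lower in every ethanol pool (Dusp6, Dusp3 1434472_at and Spred1 1443652_x_at), against 16.3% of all, and 1 was higher (Dusp5), against 6.77%. With 3 pools on each side these counts carry little weight on their own.

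Dusp5 was the 1 member whose control ethanol pools all lay above the control saline pools. Its log2 values were 6.50, 6.71 and 6.53 in control ethanol pools and 6.25, 6.14 and 6.06 in control saline pools. In Fyn-null pools they were 6.17, 6.36 and 6.31 after ethanol and 5.97, 6.30 and 6.33 after saline. Only the 3 control ethanol pools exceeded all others, and the Fyn-null pools of both treatments overlapped. The response was 0.08 in Fyn-null mice (SE 0.11, adjusted p = 0.829) and 0.43 in control mice (SE 0.11, adjusted p = 0.0694). When a gene was represented by the mean of its probe sets, Dusp5 kept the same values. In that limma fit its SE was 0.10, fewer genes were adjusted over, and the adjusted p in control mice was 0.0372.

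The difference of these responses tests whether the effect of ethanol depended on genotype, and 0 of 22 members and 0 of all 24770 probe sets were called by limma (0% called). Of the members 2 had an unadjusted p under 0.05, against 4.13% of all probe sets, and the smallest adjusted p among members was 0.992. They were Dusp5, with a difference of -0.35 (Fyn-null minus control, SE 0.15, 95% interval -0.68 to -0.02), and Spred1 1443652_x_at, with 0.26 (SE 0.11, 95% interval 0.01 to 0.51). For Dusp6 the difference of responses was -0.07 (SE 0.22, 95% interval -0.55 to 0.42), an interval that leaves out a difference as large as the fall itself. For Dusp3 1434472_at it was -0.10 (95% interval -0.36 to 0.17) and for Spry2 -0.15 (95% interval -0.48 to 0.17). Without the 2 doubted saline pools 0 members had an unadjusted p under 0.05, with Dusp5 at -0.28 (SE 0.17), Spred1 1443652_x_at at 0.28 (SE 0.14), Dusp6 at -0.16 (SE 0.26), Dusp3 1434472_at at -0.06 (SE 0.14) and Spry2 at -0.03 (SE 0.16). Spred2 1436892_at, the highest member in that fit, stood at 0.43, against -0.15 (SE 0.59) with all pools. A p that missed the threshold does not show that the genotypes responded alike.

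**Figure D4:**
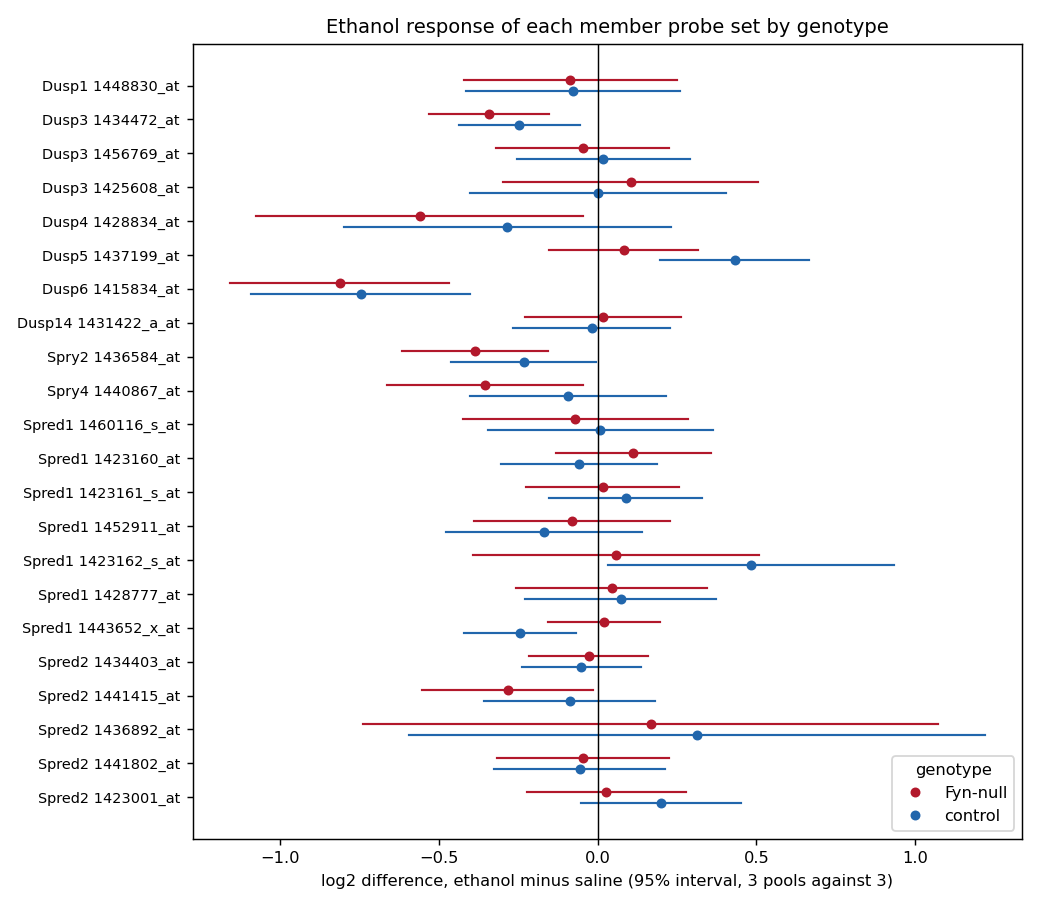
Ethanol response (log2 difference, ethanol minus saline, with 95% interval, 3 pools against 3) of each member probe set in Fyn-null mice (red) and control mice (blue). Dusp6 lies at -0.81 in Fyn-null mice and -0.75 in control mice, and Dusp5 at 0.08 and 0.43, with overlapping intervals in both cases.

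Between genotypes no member was called. After saline 0 of 22 passed by limma and 0 had an unadjusted p under 0.05, against 0% called and 1.89% of all probe sets at that unadjusted level. The values lay between -0.28 (Spred1 1423162_s_at) and 0.18 (Spred2 1441415_at), with Dusp6 at 0.02 (SE 0.16, 95% interval -0.32 to 0.37). Of the members 1 did not overlap, Spred1 1443652_x_at at -0.17 (SE 0.08, unadjusted p = 0.0517, adjusted p = 1.00), lower in every Fyn-null pool as were 2.22% of all probe sets, and 0 were higher in every one, against 2.94%. After ethanol 0 of 22 passed (0% of all called) and 2 had an unadjusted p under 0.05, against 13.6% of all probe sets.

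Those 2 were Spred1 1423162_s_at and Dusp5, and both were lower in every Fyn-null ethanol pool than in every control ethanol pool, a pattern seen in 6.51% of all probe sets (higher in 0 members and 13.8% of all). Spred1 1423162_s_at had log2 values of 8.09, 7.66 and 7.56 in Fyn-null ethanol pools and 8.81, 8.42 and 8.19 in control ethanol pools. The saline pools of Fyn-null mice read 7.83, 7.67 and 7.63, and those of control mice 7.93, 7.61 and 8.42. Both doubted pools, Fyn-null saline replicate 4 (7.63) and control saline replicate 2 (7.61), were the lowest of their groups. The difference after ethanol was -0.70 (SE 0.21, 95% interval -1.15 to -0.25, adjusted p = 0.183), and that of Dusp5 was -0.30 (SE 0.11, adjusted p = 0.252). The other 6 Spred1 probe sets differed after ethanol by -0.17 to 0.09, so this value was not shared within the gene. Over both treatments (6 pools against 6) 0 of 22 were called and 0% of all, with 2 at an unadjusted p under 0.05 against 11.1% of all. They were Spred1 1423162_s_at (-0.49, SE 0.15, adjusted p = 0.336) and Dusp14 (0.17, SE 0.08, adjusted p = 0.436). Without the 2 doubted saline pools Spred1 1423162_s_at stood at -0.42 after saline (adjusted p = 0.709) and at -0.59 over both treatments (SE 0.15, adjusted p = 0.0559), Dusp14 at 0.33 after saline (SE 0.12, adjusted p = 0.511) and 0.25 over both treatments (SE 0.07, adjusted p = 0.103), and Dusp6 at 0.11 after saline (SE 0.20). Spred2 1436892_at, the lowest member after saline in that fit, had -0.84 (SE 0.41, adjusted p = 0.674), against -0.27 (SE 0.42) with all pools. Without those pools 0 members were called in each of these 3 comparisons, while 44 of all probe sets were called after saline, 260 after ethanol and 668 over both treatments.

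The rest of the pathway was read from lists of genes, each represented by its brightest probe set, with 12323 genes measured in all. Over both genotypes 6.69% of these genes were called after ethanol, 4.80% lower and 1.89% higher, and their median was -0.04. Of the 10 members, read in the same way, 3 were called lower and the median was -0.15. Among the other phosphatase, Sprouty and Spred genes 8 of 9 were measured and 1 was called, Spred3, a Spred family inhibitor, which was lower by -0.46 (SE 0.11, adjusted p = 0.0289) with a list median of 0.01. Its log2 values ran from 7.09 to 7.53 in ethanol pools and from 7.54 to 8.05 in saline pools and did not overlap. Its call was lost on leaving out any 1 of 4 pools, Fyn-null ethanol replicate 2 or 3, control ethanol replicate 1 or control saline replicate 3 (adjusted p up to 0.0740), and with the covariate (-0.10, adjusted p = 0.912). Spry3 at -0.20 (adjusted p = 0.0653), Dusp16 at 0.13 (adjusted p = 0.208) and Dusp2 at 0.19 (adjusted p = 0.232) came next and did not pass.

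At the top of the pathway 13 of 14 growth factor receptors were measured and 3 were lower: Erbb3, a neuregulin receptor (-0.38, SE 0.07, adjusted p = 0.0112), and Flt1 (-0.41, SE 0.06, adjusted p = 0.00164) and Kdr (-0.56, SE 0.08, adjusted p = 0.00206), both receptors of vascular endothelial growth factor. Flt1 and Kdr are also on the list of endothelial markers given above, and 0 receptors were called with the covariate. Erbb2 followed at -0.21 (adjusted p = 0.117). Of 12 adaptors and Ras genes measured out of 15, 0 were called by limma and 3 had an unadjusted p under 0.05, among them the exchange factor Sos1 at -0.20 (adjusted p = 0.0823) and the docking protein Gab1 at -0.20 (adjusted p = 0.119). Of 6 Raf, MEK and ERK genes measured out of 9, 0 were called by limma and 0 had an unadjusted p under 0.05, with values between -0.13 (Map2k2) and 0.18 (Araf). Mapk11, which encodes p38 beta, was the 1 gene called of 9 measured p38 and JNK genes (-0.28, SE 0.07, adjusted p = 0.0329), and the p38 activator Map2k6 stood at 0.25 (adjusted p = 0.0506). The call of Mapk11 was lost without both doubted pools (-0.26, adjusted p = 0.0784), without a filter, with the replicate block (adjusted p = 0.106), with the covariate, and on leaving out any 1 of 7 pools, namely replicates 2 and 3 of Fyn-null ethanol, 3 of Fyn-null saline, 1 and 2 of control ethanol, and 2 and 3 of control saline. Rps6ka3, the ERK-activated kinase RSK2, was the 1 gene called of 11 measured kinases and factors that ERK or p38 phosphorylate (-0.36, SE 0.08, adjusted p = 0.0198), and it was not called with the covariate.

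Of the genes that ERK induces, 14 were measured out of 15, and the list median was -0.31. Of these 14, 2 lay above 0, the highest at 0.28, and neither was called. In the test 0 genes were called higher and 6 lower. They were the immediate early transcription factors Egr2 (-1.20, SE 0.22, adjusted p = 0.00851), Fos (-0.78, SE 0.14, adjusted p = 0.00826) and Egr1 (-0.73, SE 0.10, adjusted p = 0.00156), the synaptic gene Arc (-0.83, SE 0.23, adjusted p = 0.0472), the nuclear receptor Nr4a1 (-0.46, adjusted p = 0.0419) and Phlda1 (-0.52, adjusted p = 0.00306). Egr1 had log2 values of 10.92 to 11.37 in ethanol pools and 11.73 to 12.30 in saline pools, and Fos 8.06 to 8.63 in ethanol pools and 8.78 to 9.76 in saline pools. Neither overlapped. In Fyn-null saline replicate 3 Dusp6 (9.39), Fos (9.76) and Egr1 (12.30) each had their highest value of the 12 pools. With the covariate described above 0 of the 14 were called. Of 21 alternative fits Arc was called in 4 and Nr4a1 in 5. Both lost their call without a filter, with a further quantile normalization and with default arrayWeights, and Arc also with trend and robust eBayes. Arc and Nr4a1 were also not called without both doubted pools, and each lost its call on leaving out any 1 of 10 pools, all but Fyn-null saline replicate 2 and control saline replicate 2 for Arc (adjusted p up to 0.113) and all but Fyn-null saline replicate 2 and Fyn-null ethanol replicate 3 for Nr4a1 (adjusted p up to 0.0977).

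Of the 8 genes that glucocorticoids induce, all were measured, 5 rose and 0 fell, and the list median was 0.44. The values were 1.36 for the chaperone Fkbp5 (SE 0.09, adjusted p = 4.5e-06), 1.36 for Tsc22d3, which encodes GILZ (SE 0.07, adjusted p = 1.26e-07), and 1.03 for the kinase Sgk1 (SE 0.07, adjusted p = 2.65e-06). Klf9 (0.48) and the receptor inhibitor Errfi1 (0.33) were also called, and Zbtb16 (0.40) and Cdkn1a (0.35) were not. The remaining gene, Per1, lay below 0 at -0.20 and was not called. With the covariate 4 of the 8 were called. Dusp1, whose promoter window above held the cyclic AMP response element and which both pathways are known to induce, stood at -0.08 as given above.

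**Figure D5:**
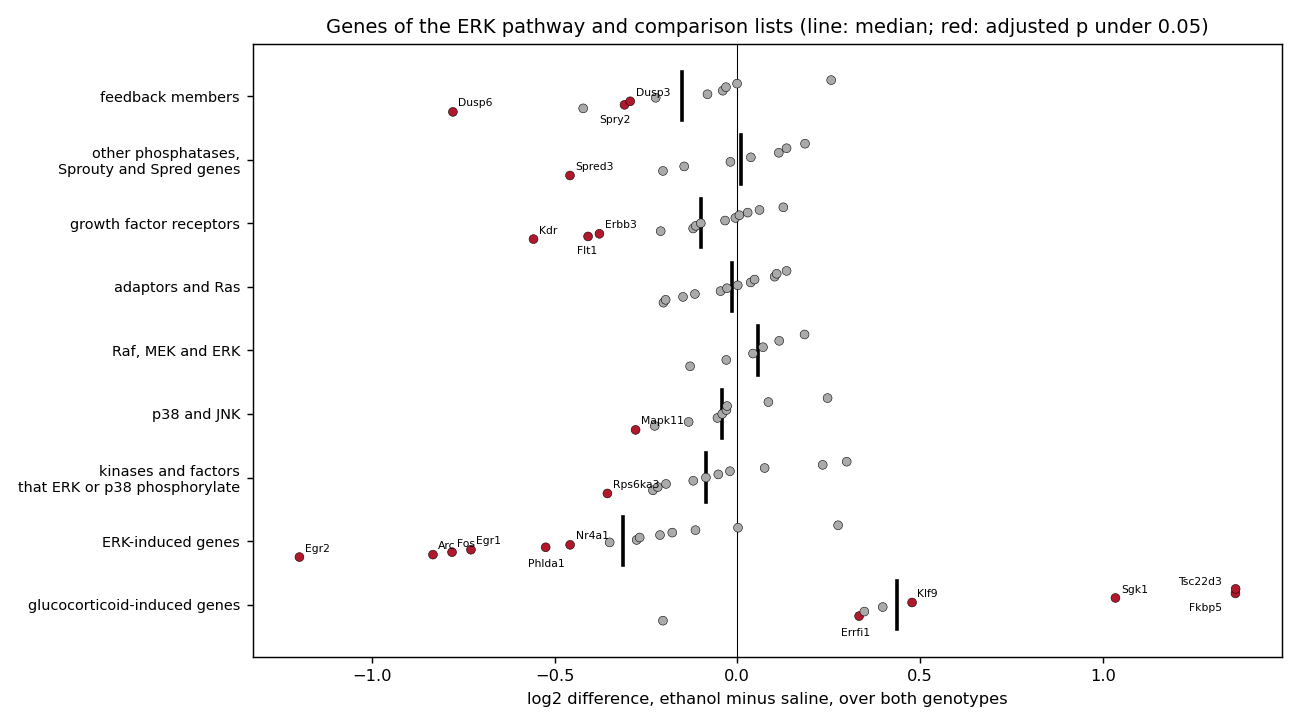
Log2 difference, ethanol minus saline over both genotypes (horizontal axis), of each gene of 9 lists, with the list median as a vertical bar; named red points had an adjusted p under 0.05 in limma. Medians run from -0.31 for the 14 ERK-induced genes to 0.44 for the 8 glucocorticoid-induced genes, with the 10 feedback genes at -0.15.

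Within each genotype the lists gave fewer calls. In Fyn-null mice limma called 2 ERK-induced genes lower, Egr1 (-0.88, adjusted p = 0.0143) and Phlda1 (-0.61, adjusted p = 0.0498), and 0 growth factor receptors. Of all genes 0.511% were called there. In control mice 0 ERK-induced genes were called by limma, and Flt1 (-0.42, adjusted p = 0.0346) and Kdr (-0.54, adjusted p = 0.0484) were, against 1.45% of all genes. Means after ethanol were lower in the other genotype as well. In control mice the mean log2 value of Egr1 was 11.82 after saline and 11.25 after ethanol, and that of Phlda1 8.89 and 8.45. In Fyn-null mice that of Flt1 was 7.54 and 7.14, and that of Kdr 6.38 and 5.81. A call in 1 genotype thus does not show that only that genotype responded. Fkbp5, Tsc22d3, Sgk1 and Klf9 were called higher in both genotypes. Without both doubted pools Phlda1 in Fyn-null mice, Flt1 and Kdr in control mice and Klf9 in both were not called. On leaving out single pools Phlda1 lost its call for 8 of 12, Flt1 for 5 and Kdr for 10, while Egr1 in Fyn-null mice lost it without Fyn-null ethanol replicate 1 or 2. No list gene was called for the difference of responses or between genotypes in any comparison, as for the series as a whole.

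The genes whose pattern over the 12 arrays was most like that of the called members were found by Pearson's r among 12313 other genes, as a description. For Dusp6 they were Stub1 (r = 0.960), Egr1 (r = 0.951) and Numb (r = 0.950), and the ethanol differences of these were -0.15, -0.73 and -0.53. For Dusp3 they were Zmiz2 (r = 0.949), Plcl2 (r = 0.932) and Reep2 (r = 0.924). For Spry2 they were Dmpk (r = 0.915), Mpp2 (r = 0.911) and Slc35a2 (r = 0.906). The arrays share the treatment, and with it the 3' to 5' difference, so genes that differ between treatments tend to correlate over them.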

How the data were processed

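The deposited values are log2 expression per probe set, which the authors made with the affy package and RMA (background correction, quantile normalization and summary across probes), per the submitters' processing notes. The sources used here name no version and no genome build, do not say whether a batch step preceded deposition, and assign no array to a batch. The study's methods put the arrays of a region on 1 processing day in randomised order. After 64 array controls were set aside, the dimmest 45% by mean were dropped, leaving 24770 of 45037 probe sets. Promoter windows and chromosomes are from RefSeq (GRCm38.p6), and the IDs of all 10 genes matched.

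Models were fitted with lmFit and eBayes of limma 3.58.1 (R 4.3.3), with 4 group means for comparisons within a genotype or treatment, and additive terms for those over both. A call is a Benjamini-Hochberg adjusted p under 0.05 over all 24770 probe sets, and the brightest probe set stood for a gene in lists. The fits were tested on simulated data. The S-scores and SAM of the study need probe-level intensities and were not run. Pools are biological replicates by the labels, and their number sets the precision: the median standard error was 0.11 between groups of 3 pools and 0.08 between sets of 6.

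The members, lists and tests were chosen with earlier results of these data known. Named genes are the members with all their probe sets, every called gene of the other lists and otherwise up to 4 per list with the smallest p. Of cell type markers those called were named, chosen after their values were seen. Replicate numbers were not taken as pairs: residual correlations of 13 same-numbered pairs ran from -0.43 to 0.32, 3 of them over 0.1, and only 2 of 12 arrays had their own number nearest. Alternatives were no filter, a 60% filter, a further quantile normalization, a replicate block, trend and robust eBayes, arrayWeights, only the groups compared, gene means, and leaving out each pool or both doubted pools. The 3' to 5' covariate and the gene-by-gene form of arrayWeights were added after the data were seen.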

Additional observations from a re-analysis of the deposited data

How the results depend on the processing

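Over both genotypes the count of 3 members called ranged from 2 to 3 on leaving out each pool and was 4 without a filter, 2 with the replicate block (Dusp3 at adjusted p = 0.0501) and 0 with the 3' to 5' covariate. It stayed at 3 under the other 6 alternatives. In control mice the count of 1 was 0 without a filter, with a further quantile normalization, with the replicate block (Dusp6 -0.71, adjusted p = 0.164), with only the groups compared, without both doubted pools and with the covariate, and 0 to 1 on leaving out each pool. In Fyn-null mice the count of 0 was 1 with the 60% filter, a further quantile normalization and trend with robust, 4 with arrayWeights by either method, and 0 to 1 on leaving out each pool. With arrayWeights 2781 of all probe sets were called there by the default and 1371 by the gene-by-gene method, against 99 in the main fit. After ethanol the genotype comparison gave 2 with arrayWeights (Spred1 1423162_s_at and Dusp5) and 1 with its gene-by-gene method (Spred1 1423162_s_at), and 0 to 0 on leaving out each pool. Of all probe sets 3975 were called in that comparison by the default and 1383 by the gene-by-gene method, against 0 in the main fit. The default arrayWeights stopped before it converged and gave Fyn-null ethanol replicate 3 a weight of 10.3, and the gene-by-gene method gave it 3.76, while the other 11 weights were 0.45 to 1.92 over both methods. The other 3 comparisons stayed at 0 throughout. The replicate block changed no other member call, but ended those of Mapk11, Arc and Nr4a1 over both genotypes, Flt1 and Kdr in control mice, Egr1 and Phlda1 in Fyn-null mice and Klf9 in each. Of the other lists over both genotypes, the growth factor receptors gave 1 call with the 60% filter, which left out Erbb3 and Kdr, the p38 and JNK genes and the other phosphatase, Sprouty and Spred genes 2 each with arrayWeights by either method, the adaptors 1, and the kinases and factors 3. Of 3287 member values recomputed, 3002 kept direction and side of the threshold, 23 lost and 15 gained a call, 0 called values changed sign and 247 changed sign without passing in either fit. With gene means Dusp3 was not called over both genotypes (adjusted p = 0.432), and Dusp5 in control mice (adjusted p = 0.0372) and Dusp6 in Fyn-null mice (adjusted p = 0.016) were. The cause was not tested. Sign and size of small differences are limited by 3 pools a group.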
